A study of Mus musculus with 6 samples.

Results

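RNA was sequenced from sorted macrophages of mouse colorectal tumours (tumour-associated macrophages, TAMs), and the sort gate described here, CD11b-high F4/80-low (F4/80low), had 2 libraries of wild type (WT) BALB/c mice and 2 of mice that lacked the chemokine gene Ccl5 (CCL5-/-). Each genotype gave 1 library numbered 1 and 1 numbered 2. The comparison set both replicate 2 libraries against both replicate 1 libraries, with genotype as a covariate, and so used 4 of the 6 libraries of the series. It shows how far libraries that the design treats as repeats of each other differed, and in which genes. The labels give strain, tumour type, gate and genotype, and neither a treatment nor an age. CCL5-/- is a loss in every cell of the animal and not in macrophages alone. Nothing in the labels says whether the numbers mark separate mice, pools, sorts or sequencing runs, so differences between the numbers could be wholly technical. No genotype had a repeat library within a number. Each p-value therefore rests on how far the change between the numbers differed between WT and CCL5-/-, with spread shared across genes. In that spread, a change that depends on genotype and variation between libraries cannot be told apart.

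CD11b, the product of Itgam, pairs with the Itgb2 product to form an adhesion receptor that is dense on monocytes, neutrophils and many macrophages. F4/80, the product of Adgre1, marks mature mouse macrophages. A gate that is high for CD11b and low for F4/80 can hold recruited monocytes, young macrophages and, where they are not removed, neutrophils. Neutrophils carry stable granule and alarmin transcripts in large amounts, so their share of a sort is readily seen in bulk RNA. In bulk RNA, fewer cells of a type and less RNA of that type per cell cannot be told apart.

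The 4 libraries did not form a balanced set. Total counts were 9280635 and 10494542 in WT and CCL5-/- replicate 1 and 22411342 and 19073767 in replicate 2. Of these, 5423624, 5250899, 189134 and 263654 reads, in the same order, lay on Rn45s, the ribosomal RNA precursor, and 344428, 224639, 7746 and 15591 on Lars2. Both rows were dropped before any scaling, which left 3512583, 5019004, 22214462 and 18794522 counts. The first principal component of the log2 CPM (counts scaled to library size with TMM factors) held 75.74% of the variance. Ccl5 itself followed the genotype labels, with 67.1 and 6.25 CPM in replicate 1 and 201 and 4.72 CPM in replicate 2 for WT and CCL5-/- (the order used for all values below). The 2 libraries labelled with the other gate, F4/80hi, tracked replicate 1. The ratio of their FPKM values predicted how the reads of 6677 genes split between the replicate 1 libraries with a median chi-square of 0.334, below the 0.455 that independent reads give. For the 11 other ordered pairs it ran from 3.578 to 8.996. Whether the F4/80hi FPKM values and the replicate 1 counts come from the same reads was not tested, so they may not be separate libraries. The better pairing joined CCL5-/- replicate 1 to the library with the F4/80hi WT label, whose Ccl5 level was 15.7 FPKM beside 145 FPKM in the library labelled F4/80hi CCL5-/-, against those genotype labels. The titles of these libraries hold the letters ko and wt the other way round from the genotype labels, as the Ccl5 levels do. Itgam stood at 173 and 177 FPKM and Adgre1, listed as Emr1, at 27.0 and 18.2 FPKM in the same order. Which gate the replicate 1 reads came from cannot be told apart here, and leaving the replicate 1 libraries out leaves no comparison.

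Of 13037 genes tested, 1950 were higher in replicate 2 (a background share of 15.0%) and 2432 were lower (18.7%), 4382 or 33.6% in all, by edgeR's quasi-likelihood test at an adjusted p of 0.05. The median log2 change over all genes was -0.00. Scaling to library totals alone moved that median to -0.28 and the split to 1015 higher and 3449 lower. Of all calls, 44.5% were higher with TMM factors and 22.7% were higher with totals. Leaving out WT replicate 1, CCL5-/- replicate 1, WT replicate 2 or CCL5-/- replicate 2 in turn, without the genotype term, left 628, 810, 1657 and 1684 genes higher and 1175, 1329, 1915 and 1631 lower. The same order of left-out libraries holds for every list below. The plot of list medians gives all 41 lists with at least 5 tested members. Scaling to totals turned the sign of 10 of these 41 medians, among them those of fibroblast and pericyte (-0.10), endothelial (-0.01), glycolysis and hypoxia (-0.09) and cell cycle genes (-0.10).

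**Figure D1:**
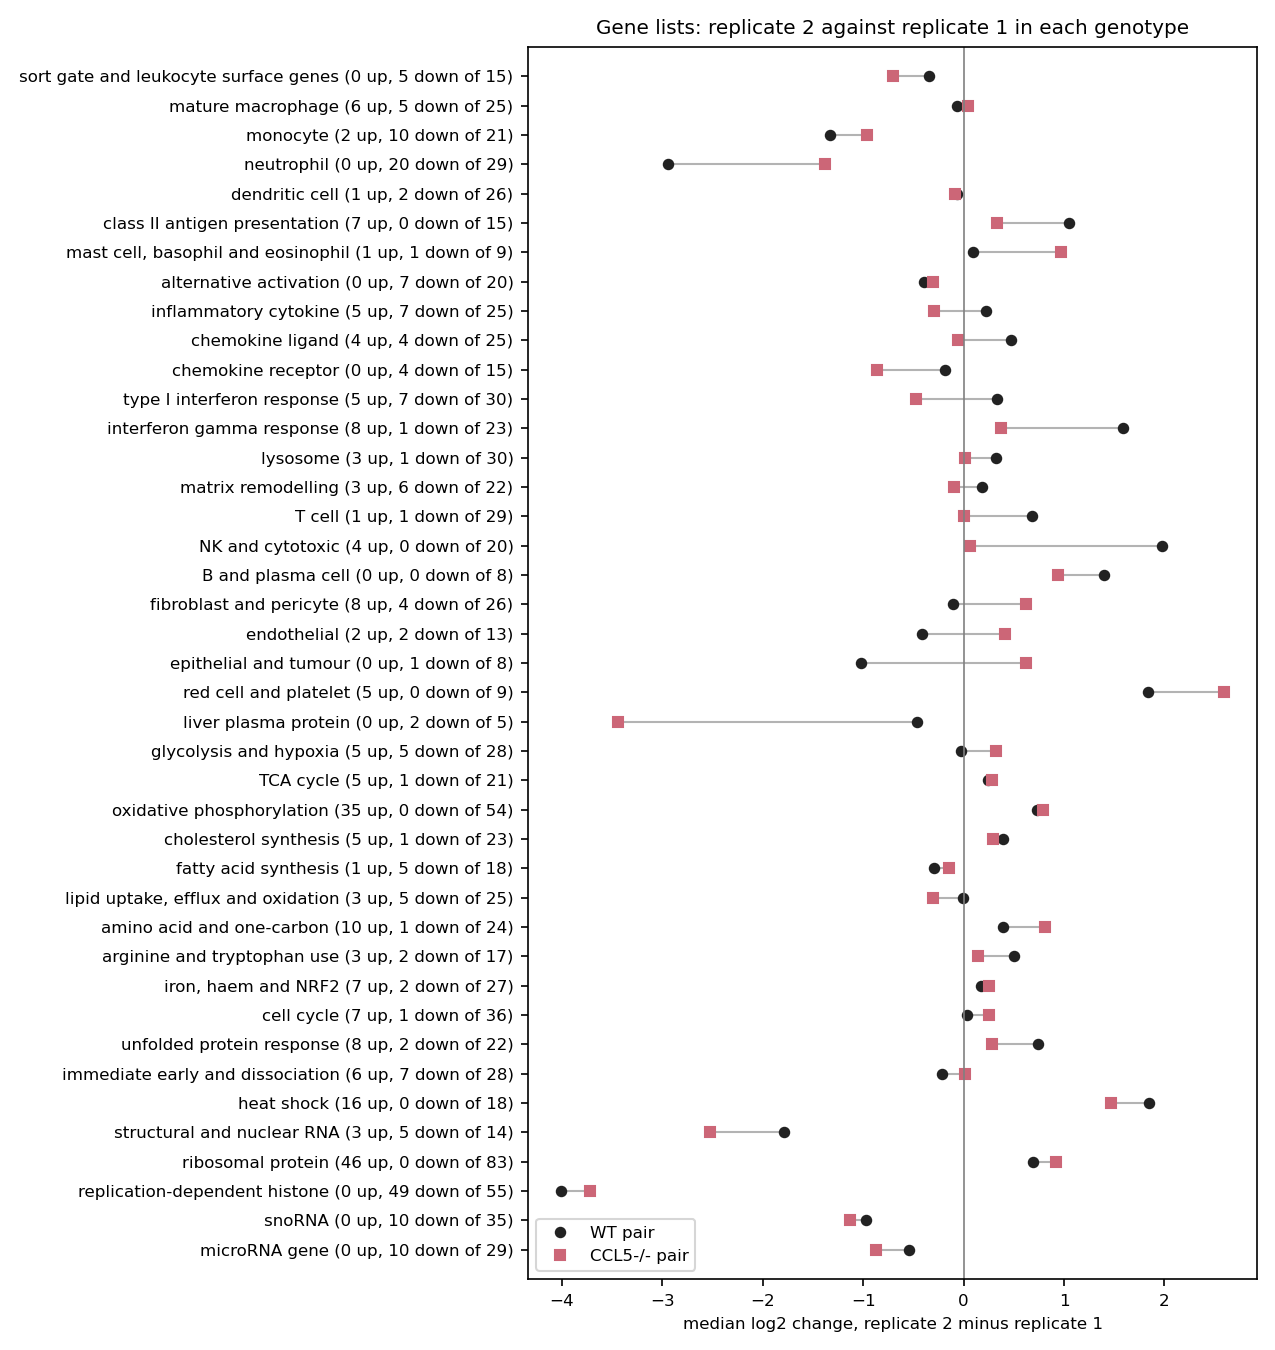
Median log2 change (replicate 2 minus replicate 1) of each gene list, computed within WT (circles) and within CCL5-/- (squares), with the number of members called higher and lower in the fit over all 4 libraries. Heat shock, oxidative phosphorylation and ribosomal protein genes lie to the right in both genotypes, and histone and neutrophil genes lie to the left in both.

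Among the gate's own genes, those called in the fit over all 4 libraries were all lower in replicate 2. Itgam had 916 and 892 CPM in replicate 1 and 277 and 226 CPM in replicate 2. Both replicate 2 libraries were below both replicate 1 libraries, and the fit gave log2 change -1.86, SE 0.26, adjusted p = 2.69e-06. Its partner Itgb2 followed with 380.3 and 364 against 165 and 141 CPM (log2 change -1.29, SE 0.23, adjusted p = 0.000106), and Ptprc, which encodes the pan-leukocyte phosphatase CD45, with 383 and 320.1 against 160.2 and 78.8 CPM (log2 change -1.64, SE 0.25, adjusted p = 1.06e-05). Adgre1 was not called. Its levels were 54.5 and 82.5 CPM in replicate 1 and 79.5 and 55.3 CPM in replicate 2, so the numbers overlapped, and its log2 change was 0.54 in WT and -0.58 in CCL5-/- (fit -0.03, adjusted p = 0.952). Csf1r, the receptor for the macrophage growth factor CSF1, had 294 and 322 against 232 and 198 CPM (adjusted p = 0.0849), and Cd68, a lysosomal macrophage marker, had 161 and 160.1 against 188 and 156 CPM (adjusted p = 0.779). Of 15 gate and leukocyte surface genes tested, 0 were higher and 5 lower, with a median of -0.51 beside -0.00 for all genes. In both genotypes 9 of them were lower and 3 higher, and 3 had opposite signs in the 2 genotypes. With libraries left out in turn, the list median was -0.52, -0.40, -0.64 and -0.36. The remaining pair of calls, Itgal (an adhesion receptor chain, -0.99) and Itgax (which encodes CD11c, -0.77), were lower as well. The fits with a library left out also lack the genotype term. In them the call was lost for Itgal (log2 change -0.75 without WT replicate 1) and Itgax. Itgax had log2 changes of -0.31 without WT replicate 1, -1.06 without CCL5-/- replicate 1 and -0.26 without CCL5-/- replicate 2. With all 4 libraries but no genotype term, Itgax was not called either (adjusted p = 0.173). A call was gained for Csf1r (adjusted p = 0.0425 without WT replicate 2). No library lacked any of these genes. Whether the sort gate set these differences was not tested.

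**Figure D2:**
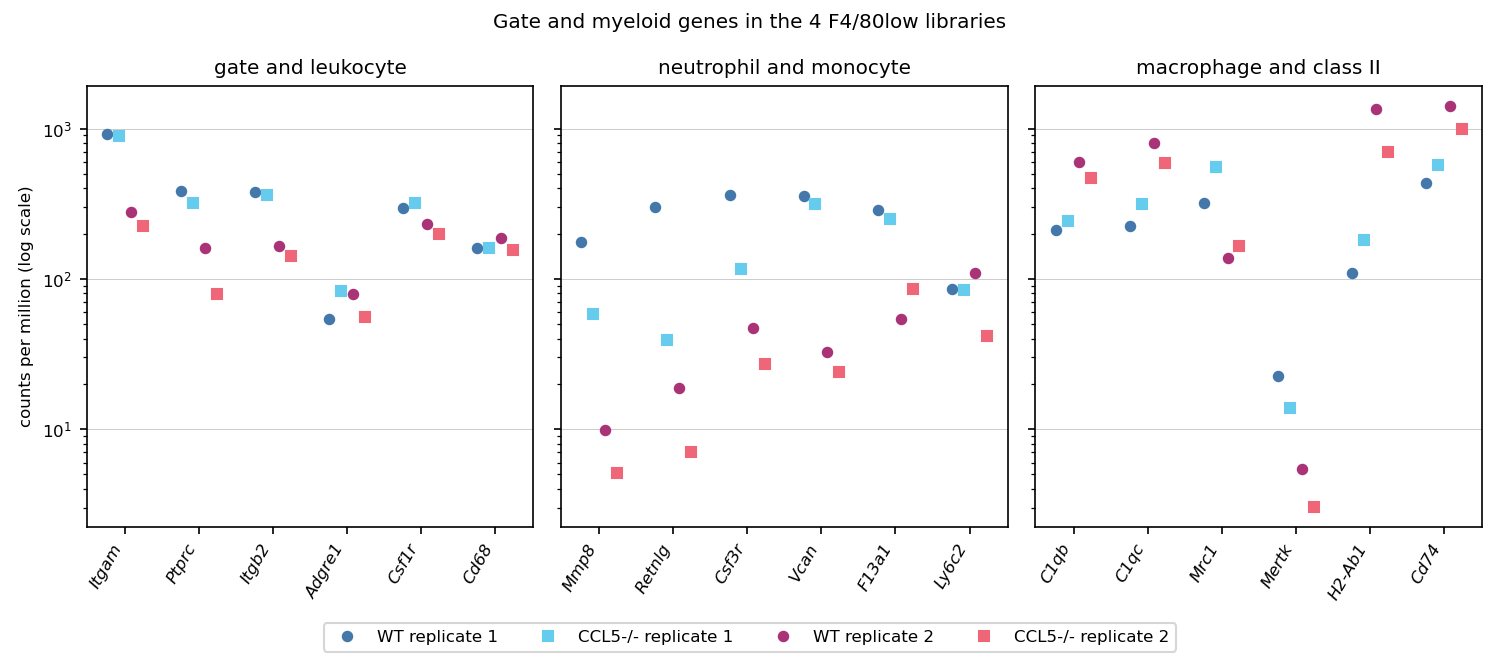
CPM (log scale) of gate, neutrophil, monocyte, macrophage and class II genes in each of the 4 libraries, blue for replicate 1 and red for replicate 2, circles for WT and squares for CCL5-/-. Itgam, Ptprc and Vcan stand lower and C1qb and H2-Ab1 higher in both replicate 2 libraries, while Adgre1 and Cd68 overlap.

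Neutrophil genes were lower in replicate 2 in both genotypes. Of 29 tested, 0 were higher and 20 lower, with a median of -2.33 (-2.94 in the WT pair and -1.38 in the CCL5-/- pair). The whole list, 35 genes in the table, summed to 8838 and 2798 CPM in replicate 1 and 2950 and 1444 CPM in replicate 2. WT replicate 1 held the most and CCL5-/- replicate 2 the least, while CCL5-/- replicate 1 and WT replicate 2 lay side by side. Mmp8, a neutrophil collagenase, had 176 and 58.4 CPM in replicate 1 and 9.89 and 5.12 CPM in replicate 2 (log2 change -3.85, SE 0.26, adjusted p = 1.4e-11). Csf3r, the receptor for the granulocyte growth factor, had 362 and 117 against 46.9 and 27.2 CPM (log2 change -2.53, SE 0.25, adjusted p = 2.72e-08). Retnlg, a resistin-like secreted protein of neutrophils, had 302 and 39.3 against 18.7 and 7.08 CPM (log2 change -3.30, SE 0.36, adjusted p = 7.39e-05). Hp, the haemoglobin-binding acute-phase protein haptoglobin, is counted in the monocyte list and not in the neutrophil list. It had 204 and 51.5 against 17.8 and 8.11 CPM (log2 change -3.11, SE 0.26, adjusted p = 1.18e-09). Cxcr2, which senses CXC chemokines, had 49.0 and 13.6 against 2.62 and 2.82 CPM (log2 change -3.29, SE 0.44, adjusted p = 0.000151). S100a8, an alarmin subunit, had 1490 and 231 against 156 and 127 CPM and was not called (adjusted p = 0.261). The lectin receptor genes Clec4d and Clec4e, which macrophages also express, had log2 changes of -0.20 and -0.07 and were not called. Leaving out each library in turn gave counts that differed, and 7, 23, 5 and 1 neutrophil genes were lower, the smallest count without CCL5-/- replicate 2. The test no longer passed for Mmp8 (adjusted p = 0.29 without WT replicate 2 and 0.351 without CCL5-/- replicate 2), Csf3r (adjusted p = 0.376 without WT replicate 2 and 0.465 without CCL5-/- replicate 2), Retnlg (adjusted p = 0.472 without WT replicate 2 and 0.572 without CCL5-/- replicate 2), Hp (adjusted p = 0.396 without WT replicate 2 and 0.491 without CCL5-/- replicate 2) and Cxcr2 (adjusted p = 0.271 without WT replicate 2 and 0.281 without CCL5-/- replicate 2). A call was gained for S100a8 (adjusted p = 6.06e-05 without CCL5-/- replicate 1), Clec4d (adjusted p = 0.0215 without WT replicate 2) and Clec4e (adjusted p = 0.0422 without WT replicate 2). These fits carry no genotype term. With all 4 libraries but no genotype term, 7 neutrophil genes were lower, without Retnlg (adjusted p = 0.231) and Csf3r (adjusted p = 0.0614). Hp of the monocyte list was not called there either (adjusted p = 0.133).

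Of 21 monocyte genes, 2 were higher and 10 lower (median -0.67). Vcan, a large matrix proteoglycan of classical monocytes, had 358 and 317 CPM in replicate 1 and 32.8 and 24.1 CPM in replicate 2 (log2 change -3.58, SE 0.25, adjusted p = 1.94e-11), about the same in both genotypes within a number. F13a1, coagulation factor XIII A, had 286 and 249 against 54.5 and 85.7 CPM (log2 change -1.96, SE 0.25, adjusted p = 1.2e-06). Itga4, the integrin chain that binds VCAM1, had 98.7 and 101 against 19.4 and 12.4 CPM (log2 change -2.69, SE 0.25, adjusted p = 4.52e-09), and Chil3, a chitinase-like secreted protein, 177 and 63.6 against 8.02 and 8.46 CPM (log2 change -3.70, SE 0.37, adjusted p = 3.99e-05). Ly6c2 and Ccr2, which define classical monocytes, were not called (85.8 and 84.9 against 109 and 41.7 CPM and 137 and 172 against 150.5 and 69.3 CPM). Plac8 and S100a4 were the members called higher (262 and 216 against 667 and 304 CPM and 1225 and 1405 against 3219 and 2594 CPM). In the fits without 1 library, 6, 11, 9 and 5 were lower. These fits also lack the genotype term. In them the call was lost for Chil3 (log2 change -3.82 without WT replicate 2 and -3.86 without CCL5-/- replicate 2). The same held for S100a4 (1.05 without WT replicate 1). Plac8 lost its call too (1.17 without WT replicate 1, 0.89 without CCL5-/- replicate 1 and 0.35 without WT replicate 2). With all 4 libraries but no genotype term, Plac8 was not called either (adjusted p = 0.0508). A call was gained for Ly6c2 (adjusted p = 0.0034 without WT replicate 2) and Ccr2 (adjusted p = 0.00174 without WT replicate 2).

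Mature macrophage genes went both ways. Of 25 tested, 6 were higher and 5 lower, with a median of -0.03. C1qb, a subunit of the complement protein C1q, had 210.0 and 244 CPM in replicate 1 and 604 and 466 CPM in replicate 2 (log2 change 1.23, SE 0.25, adjusted p = 0.000378). Its partner C1qc had 226 and 316 against 803 and 587 CPM (log2 change 1.36, SE 0.27, adjusted p = 0.000303), and C1qa had a log2 change of 1.27. Ms4a7, a membrane protein of macrophages, was higher by 1.59. The mannose receptor gene Mrc1 had 318 and 556 against 137 and 165 CPM (log2 change -1.49, SE 0.24, adjusted p = 2.77e-05), the apoptotic-cell receptor gene Mertk 22.6 and 13.8 against 5.45 and 3.05 CPM (log2 change -2.11, SE 0.34, adjusted p = 1.99e-05), and the haemoglobin scavenger receptor gene Cd163 had a log2 change of -2.05 (adjusted p = 0.00226). Apoe, Trem2 and Axl were not called. Of 20 alternative activation genes, 0 were higher and 7 lower (median -0.28). Arg1, which breaks down arginine, had 492 and 857 against 391 and 322 CPM (log2 change -0.87, SE 0.27, adjusted p = 0.0159), and the chemokine gene Ccl24 had 48.4 and 52.9 against 21.7 and 14.0 CPM (log2 change -1.54, SE 0.25, adjusted p = 2.26e-05). With libraries left out in turn, 3, 4, 5 and 7 macrophage genes were higher and 3, 3, 6 and 6 lower. With 1 library left out, the call was lost for C1qc (adjusted p = 0.0533 without WT replicate 1), Cd163 (adjusted p = 0.0768 without WT replicate 1) and Arg1 (adjusted p = 0.349 without CCL5-/- replicate 1 and 0.132 without CCL5-/- replicate 2).

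Antigen presentation genes were higher in replicate 2. Of 15 class II pathway genes tested, 7 were higher and 0 lower, with a median of 0.66 (1.05 in the WT pair and 0.34 in the CCL5-/- pair). H2-Ab1, a class II beta chain, had 109 and 182 CPM in replicate 1 and 1353 and 696 CPM in replicate 2 (log2 change 2.77, SE 0.39, adjusted p = 0.000428). H2-Aa, its alpha chain partner, had 129 and 189 against 1265 and 569 CPM (log2 change 2.43, SE 0.40, adjusted p = 0.00118), and Cd74, the invariant chain, 433 and 569 against 1412 and 994 CPM (log2 change 1.25, SE 0.28, adjusted p = 0.000945). WT replicate 2 was the highest of the 4 libraries for each of these 3 genes. Ciita, the class II transactivator, was not called (9.21 and 8.93 against 9.74 and 5.06 CPM). H2-K1, a class I heavy chain, had 259 and 395 against 2057 and 1858 CPM (log2 change 2.61, SE 0.29, adjusted p = 1.01e-07). H2 genes are polymorphic and near-identical to each other, so their counts are uncertain where reads could be split. Of 23 interferon gamma response genes, 8 were higher and 1 lower (median 0.85, 1.59 in the WT pair and 0.37 in the CCL5-/- pair). Psmb9, an immunoproteasome subunit, had 33.4 and 55.7 against 159 and 118 CPM (log2 change 1.65, SE 0.27, adjusted p = 0.000115) and Gbp2, a guanylate-binding GTPase, 54.2 and 104 against 186 and 169 CPM (log2 change 1.23, SE 0.26, adjusted p = 0.000806). Cxcl9, a T cell chemokine, had 4.47 and 65.9 against 379 and 182 CPM and was not called (adjusted p = 0.487). Type I interferon genes gave 5 higher and 7 lower of 30, near the shares of all genes (median -0.07, 0.33 in the WT pair and -0.47 in the CCL5-/- pair). Oas3, an antiviral oligoadenylate synthase, was among the lower (log2 change -1.08) and Bst2, a virus-tethering protein, among the higher (0.90). Leaving out each library in turn gave counts that differed, and 5, 6, 6 and 10 class II and 3, 13, 2 and 8 interferon gamma genes were higher. For type I interferon genes the counts were 0, 1, 1 and 8 higher and 2, 2, 9 and 4 lower. These fits also lack the genotype term. In them the call was lost for Cd74 (log2 change 1.08) and Oas3 (-0.86) without WT replicate 1. The same held for Gbp2 (0.78 without WT replicate 1 and 1.09 without WT replicate 2). Bst2 lost its call too (0.90 without WT replicate 1 and 0.96 without CCL5-/- replicate 1). A call was gained for Cxcl9 (adjusted p = 0.0127 without WT replicate 1 and 0.000174 without CCL5-/- replicate 1).

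Inflammatory genes went both ways. Of 25 cytokine and inflammation genes, 5 were higher and 7 lower (median -0.05). Nlrp3, the inflammasome sensor, had 778 and 663 CPM in replicate 1 and 255 and 234 CPM in replicate 2 (log2 change -1.55, SE 0.25, adjusted p = 2.04e-05), and Osm, which encodes oncostatin M, had 187 and 176 against 75.3 and 83.2 CPM (log2 change -1.20, SE 0.23, adjusted p = 0.000176). Csf2, the granulocyte-macrophage growth factor, was higher (16.1 and 36.8 against 51.9 and 70.4 CPM, log2 change 1.28, SE 0.24, adjusted p = 0.000205). Il1b and Tnf were not called, with log2 changes of 0.20 and -0.06. Il11, an IL-6 family cytokine outside the list, had 18.4 and 19.3 against 214 and 217 CPM (log2 change 3.51, SE 0.25, adjusted p = 3.5e-11), and Il1rl1, the IL-33 receptor gene, 80.5 and 127 against 1028 and 1001 CPM (log2 change 3.32, SE 0.28, adjusted p = 1.09e-09). Both were named by a rule that took only genes whose numbers did not overlap, as was so for 8903 of the 13037 genes tested. Of 25 chemokine ligand genes, 4 were higher and 4 lower, near the shares of all genes (15.0% higher and 18.7% lower). The neutrophil attractants Cxcl2 and Cxcl3 were lower (3402 and 3204 against 1880 and 1296 CPM and 832 and 786 against 309 and 234 CPM, log2 changes -1.08 and -1.59). Ccl11, an eosinophil attractant, had 0 and 0 reads in replicate 1 and 58 and 19 in replicate 2 (adjusted p = 0.00331). Of 15 chemokine receptor genes, 0 were higher and 4 lower: Cxcr2, Ccrl2 (-1.29), Ackr3 (-0.82) and Ccr1 (-0.76). Without 1 library, 0, 3, 2 and 5 cytokine and inflammation genes were higher and 4, 5, 7 and 5 lower, and the median turned to 0.22 without CCL5-/- replicate 2. Chemokine ligand genes then gave 1, 6, 1 and 5 higher and 2, 2, 6 and 3 lower, and 1, 2, 4 and 2 receptor genes were lower. The test no longer passed for Csf2 (adjusted p = 0.156 without WT replicate 1, 0.106 without WT replicate 2, and also 0.209 without CCL5-/- replicate 2), Cxcl2 (adjusted p = 0.0751 without WT replicate 1 and 0.0509 without CCL5-/- replicate 1), Ccl11 (adjusted p = 0.0541 without WT replicate 1 and 0.077 without CCL5-/- replicate 1), Ccrl2 (adjusted p = 0.0628 without WT replicate 1) and Ackr3 (adjusted p = 0.0587 without WT replicate 1, 0.219 without CCL5-/- replicate 1, and also 0.0849 without WT replicate 2). It was also lost for Ccr1 (adjusted p = 0.232 without WT replicate 1, 0.0968 without CCL5-/- replicate 1, and also 0.163 without CCL5-/- replicate 2).

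Lymphoid transcripts were present in all libraries at low levels. The 29 T cell genes summed to 198 and 249 CPM in replicate 1 and 335 and 194 CPM in replicate 2, and 1 (Cd3g, a chain of the T cell receptor complex, 7.37 and 9.11 against 37.0 and 12.1 CPM, log2 change 1.33, SE 0.41, adjusted p = 0.0275) was higher and 1 (Foxp3, the regulatory T cell factor, 10 and 13 reads in replicate 1 and 8 and 13 in replicate 2, adjusted p = 0.035) lower. Cd3d and Cd3e, chains of the same complex, had log2 changes of -0.13 and -0.12 and were not called. Cytotoxic and natural killer (NK) genes summed to 405 and 556 CPM in replicate 1 and 1027 and 519 CPM in replicate 2. WT replicate 2 had the most. Of 20 tested, 4 were higher and 0 lower, and the median log2 change was 1.98 in the WT pair and 0.07 in the CCL5-/- pair. Klrd1, an NK receptor chain, had 4.21 and 9.11 against 29.6 and 16.2 CPM (log2 change 1.69, SE 0.41, adjusted p = 0.0067), and Ifng, which encodes interferon gamma, 2.63 and 2.86 against 16.4 and 6.56 CPM (log2 change 1.89, SE 0.44, adjusted p = 0.00145). Of 8 B and plasma cell genes tested, none was called at an adjusted p of 0.05. Jchain, which joins secreted antibodies, had 7.11 and 10.5 against 133 and 24.9 CPM (adjusted p = 0.354). In the fits without 1 library, 0, 6, 2 and 12 NK and cytotoxic genes were higher. A left-out library ended the call of Cd3g (adjusted p = 0.154 without WT replicate 1, 0.111 without CCL5-/- replicate 1, and also 0.318 without WT replicate 2), Foxp3 (adjusted p = 0.182 without WT replicate 1, 0.157 without CCL5-/- replicate 1, 0.235 without WT replicate 2, and also 0.138 without CCL5-/- replicate 2), Klrd1 (adjusted p = 0.0603 without WT replicate 1) and Ifng (adjusted p = 0.0635 without WT replicate 1, 0.0633 without CCL5-/- replicate 1, and also 0.118 without WT replicate 2). A call was gained for Jchain (adjusted p = 0.00422 without WT replicate 2 and 1.04e-08 without CCL5-/- replicate 2).

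Genes of stromal and other cell types were called in both directions. Of 26 fibroblast and pericyte genes, 8 were higher and 4 lower, and the list summed to 2545 and 2098 CPM in replicate 1 and 2807 and 3405 CPM in replicate 2. Dcn, the collagen-binding proteoglycan decorin, had 106 and 32.5 CPM in replicate 1 and 339 and 140.1 CPM in replicate 2 (log2 change 1.89, SE 0.24, adjusted p = 7.14e-07). Its WT libraries were above the CCL5-/- library of the same number, and replicate 2 was above replicate 1 in each genotype. Lum, which encodes lumican, had 5 and 13 reads in replicate 1 and 357 and 160 in replicate 2 (log2 change 2.74, SE 0.45, adjusted p = 4.19e-05), and Serpinh1, a collagen chaperone that is also induced by heat stress, 264 and 324 against 765 and 909 CPM (log2 change 1.51, SE 0.25, adjusted p = 3.61e-05). The major collagen genes Col1a1 and Col3a1 were not called (log2 changes -0.13 and 0.32). Of 13 endothelial genes, 2 were higher and 2 lower, near the shares of all genes (15.0% higher and 18.7% lower). Vwf, the platelet-binding factor of vessel walls, was among the higher (2.63 and 0.893 against 8.98 and 8.46 CPM). Cdh5, the endothelial cadherin, was among the lower (6.32 and 2.68 against 1.06 and 1.61 CPM). Of 8 epithelial and tumour genes, Cdh1, the epithelial cadherin, was lower (14.2 and 10.5 against 3.08 and 3.05 CPM, log2 change -1.99, SE 0.40, adjusted p = 0.000286) and the others were not called. The platelet receptor genes stood apart in both replicate 2 libraries. Itga2b, the platelet integrin chain, had 8.42 and 6.61 against 42.1 and 40.7 CPM (log2 change 2.47, SE 0.28, adjusted p = 9.6e-08), and the platelet receptor subunit genes Gp9 and Gp1bb were called higher as well. Gp9 had 1 and 4 reads in replicate 1 and 224 and 166 in replicate 2 (adjusted p = 2.55e-06), and Gp1bb had 1 and 3 reads in replicate 1 and 186 and 135 in replicate 2 (adjusted p = 7.68e-06). The platelet chemokine genes Pf4 and Ppbp, however, were not called (224 and 248 against 179 and 155 CPM and 39.7 and 42.2 against 46.4 and 40.5 CPM). Pf4 was called lower, opposite to the receptor genes, with library totals (adjusted p = 0.0104), a minimum of 50 counts (adjusted p = 0.0471) and length offsets (adjusted p = 0.000312). All 6 globin genes in the table were listed at 0 in all 4 libraries. Liver plasma protein genes were a feature of CCL5-/- replicate 1. The list summed to 157 and 387 CPM in replicate 1 and 113 and 98.5 CPM in replicate 2, and Alb, which encodes albumin, had 0 and 653 reads in replicate 1 and 1 and 0 in replicate 2. Apoa2 was lower in replicate 2 (6 and 35 reads in replicate 1 and 3 and 0 in replicate 2, adjusted p = 0.000482). The fibroblast and pericyte median was -0.10 in the WT pair and 0.62 in the CCL5-/- pair. With libraries left out in turn, that median was 0.48, 0.17, 0.41 and 0.21. The liver list median was then -3.34, -0.41, -2.79 and -3.15. With 1 library left out, the call was lost for Dcn (adjusted p = 0.135 without CCL5-/- replicate 1, 0.655 without WT replicate 2, and also 0.412 without CCL5-/- replicate 2), Vwf (adjusted p = 0.0533 without CCL5-/- replicate 1) and Cdh5 (adjusted p = 0.428 without WT replicate 1, 0.189 without WT replicate 2, and also 0.108 without CCL5-/- replicate 2). The part of other cell types in the calls was not tested.

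Genes of mitochondrial respiration had the most calls of the metabolic lists. Of 54 oxidative phosphorylation genes, 35 were higher and 0 lower, and the median was 0.75 (0.73 in the WT pair and 0.79 in the CCL5-/- pair). Cox7b, a cytochrome oxidase subunit, had 131 and 151 CPM in replicate 1 and 508 and 409.8 CPM in replicate 2 (log2 change 1.70, SE 0.25, adjusted p = 5.03e-06), and Cox6c had 194 and 195 against 638 and 569 CPM (log2 change 1.63, SE 0.25, adjusted p = 9.19e-06). Ndufs1, a core subunit of complex I, was not called (57.9 and 56.5 against 57.7 and 56.3 CPM, log2 change -0.01). Of 21 TCA cycle genes, 5 were higher and 1 lower: Pdhb of pyruvate dehydrogenase was higher (1.02) and Ogdh, the oxoglutarate dehydrogenase, lower (-0.76). Glycolysis and hypoxia genes gave 5 higher and 5 lower of 28, near the shares of all genes. Pfkfb3, which makes the activator of phosphofructokinase, had 63.4 and 34.7 against 17.1 and 11.9 CPM (log2 change -1.72, SE 0.24, adjusted p = 3.2e-06), and Egln3, an oxygen sensor, 40.5 and 20.4 against 9.99 and 7.08 CPM (log2 change -1.78, SE 0.28, adjusted p = 1.38e-05), whereas Gapdh was higher (1514 and 1702 against 2789 and 3452 CPM, log2 change 0.95). Leaving out each library in turn gave counts that differed, and 15, 9, 32 and 39 oxidative phosphorylation genes were higher. The same fits gave 0, 2, 4 and 7 TCA cycle genes higher (1 with the length offsets described below), and glycolysis and hypoxia genes gave 0, 0, 9 and 2 higher and 2, 4, 3 and 5 lower. These fits also lack the genotype term. In them the call was lost for Pdhb (log2 change 0.89 without WT replicate 1). The same held for Ogdh (-0.84 without WT replicate 1, -0.67 without CCL5-/- replicate 1 and -0.63 without WT replicate 2). Gapdh lost its call too (0.88 without WT replicate 1 and 1.05 without CCL5-/- replicate 1).

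Lipid lists were called about as often as all genes. Acaca, the first enzyme of fatty acid synthesis, had 52.9 and 71.6 CPM in replicate 1 and 18.5 and 21.2 CPM in replicate 2 (log2 change -1.64, SE 0.23, adjusted p = 3.3e-06), and Abca1, the cholesterol exporter, 398 and 378 against 80.1 and 69.4 CPM (log2 change -2.38, SE 0.24, adjusted p = 1.63e-08). Fabp4, a fatty acid carrier, went the other way (3.42 and 3.22 against 20.1 and 8.74 CPM, log2 change 1.98, SE 0.39, adjusted p = 0.000295). Of 18 fatty acid synthesis genes, 1 was higher and 5 lower, and of 23 cholesterol synthesis genes 5 were higher and 1 lower. In Msmo1, a sterol oxidase, the CCL5-/- library was above the WT library within each number (43.2 and 94.0 against 127 and 218 CPM, log2 change 1.38, SE 0.23, adjusted p = 4.14e-05). Of 24 amino acid and one-carbon genes, 10 were higher and 1 lower (median 0.58). Chac1, which degrades glutathione, had 11.6 and 9.65 against 47.1 and 96.2 CPM (log2 change 2.70, SE 0.30, adjusted p = 1.51e-06), and the stress factor genes Ddit3 and Trib3 had log2 changes of 1.69 and 1.88. Slc7a11, the cystine importer, was the lower member (382 and 256 against 79.7 and 46.8 CPM, log2 change -2.35, SE 0.24, adjusted p = 1.64e-08). Prdx1, a peroxidase, had 295 and 408 against 1722 and 1132 CPM (log2 change 2.01, SE 0.29, adjusted p = 8.62e-06), and Slc40a1, the iron exporter, 42 and 28 reads in replicate 1 and 34 and 29 in replicate 2 (log2 change -2.15, SE 0.52, adjusted p = 0.00191). Of 36 cell cycle genes, 7 were higher, among them Cdk1, the mitotic kinase (1.31), and 1, Mki67, a marker of dividing cells, lower (-0.83, but 0.32 with the transcript length offsets described below, adjusted p = 0.402). In the fits without 1 library, 4, 7, 13 and 7 amino acid and one-carbon genes were higher, 0, 3, 3 and 0 cholesterol genes and 1, 3, 8 and 5 cell cycle genes. The test no longer passed for Msmo1 (adjusted p = 0.139 without WT replicate 1, 0.117 without WT replicate 2, and also 0.309 without CCL5-/- replicate 2), Slc40a1 (adjusted p = 0.116 without WT replicate 1) and Mki67 (adjusted p = 0.0805 without WT replicate 1, 0.247 without CCL5-/- replicate 1, and also 0.172 without CCL5-/- replicate 2).

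Heat shock genes were higher in replicate 2 in both genotypes. These genes encode chaperones that bind unfolded proteins, and the factor HSF1 switches them on through repeats of the unit GAA and its reverse complement. Of 18 tested, 16 were higher and 0 lower, with a median of 1.80 (1.84 in the WT pair and 1.47 in the CCL5-/- pair). The sum over the list was 4279 and 5352 CPM in replicate 1 and 18408 and 12698 CPM in replicate 2. Hspa1b, an inducible HSP70 gene, had 55.8 and 49.8 CPM in replicate 1 and 1203 and 709 CPM in replicate 2 (log2 change 4.13, SE 0.29, adjusted p = 1.94e-11). Dnajb1, an HSP40 cochaperone, had 95.0 and 91.1 against 1432 and 844 CPM (log2 change 3.56, SE 0.29, adjusted p = 4.11e-10), Hsph1, a nucleotide exchange factor of HSP70, 103 and 116 against 1106 and 604 CPM (log2 change 2.90, SE 0.29, adjusted p = 3.26e-08), and Hspa1a 59.5 and 59.1 against 639 and 375 CPM (log2 change 3.04, SE 0.27, adjusted p = 2.52e-09). WT replicate 2 was the highest library for each. These genes were named by a rule that took only genes whose numbers did not overlap. Over the whole list, 18 of 18 tested members had no overlap, beside 8903 of all 13037 genes tested. Hspa4 and Hspa4l, HSP110 family members, were not called (126 and 163 against 191 and 165 CPM and 57.9 and 68.4 against 85.7 and 74.0 CPM). With libraries left out in turn, 12, 15, 16 and 16 members were higher. 

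Upstream sequences are shown for 7 of the heat shock genes because the members moved together. Of 14 members with an upstream window in the RefSeq table (GRCm38.p6, the build of the coordinates below), 8 held the letters GAANNTTC or TTCNNGAA, each of which reads the same on both strands, within 250 bases before any listed start of the gene. So did 12.8% of all 32851 windows of that length, and 12.2% of 9835 tested genes with a window. The 2 motifs can overlap, and capitals mark the matches. All lie on the strand of the gene, 5′ to 3′.
Hspa1b, chr17:34959323-34959354, minus strand: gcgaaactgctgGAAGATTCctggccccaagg
Hspa1a, chr17:34972241-34972272, minus strand: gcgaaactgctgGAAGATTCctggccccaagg
Hsph1, chr5:149636350-149636381, minus strand: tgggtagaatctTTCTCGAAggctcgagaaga
Dnaja1, chr4:40722332-40722363, plus strand: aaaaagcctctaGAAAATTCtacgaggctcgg
Hspb1, chr5:135887790-135887841, plus strand: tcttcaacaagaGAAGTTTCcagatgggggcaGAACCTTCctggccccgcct
Hspe1, chr1:55088047-55088088, plus strand: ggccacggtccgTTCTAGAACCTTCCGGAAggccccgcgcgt
Dnajb4, chr3:152193846-152193871, minus strand: gttcgttcgctgTTCTAGAAagtaca
The stretches of Hspa1b and Hspa1a are identical, and these near-identical genes may share reads in the authors' counting. Genes with several windows are shown for the window with the most matches. The Hsph1 stretch lies inside the gene's RefSeq span (149616843 to 149636498), upstream of a start within it. The Hspe1 stretch, with 3 overlapping matches, also lies upstream of Hspd1, which starts in the opposite direction. Dnajb1, Bag3, Stip1 and Chordc1 were higher without a match in their windows (log2 changes 3.56, 1.95, 1.22 and 1.18). A match is a description of letters and not a bound site.

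Other stress lists had calls in both directions. Of 22 unfolded protein response genes, 8 were higher and 2 lower (median 0.45). Herpud1, a factor in the removal of misfolded proteins, had 92.1 and 88.6 against 229 and 259 CPM (log2 change 1.43, SE 0.23, adjusted p = 2.4e-05), and Hspa5, the main chaperone of the endoplasmic reticulum, 1268 and 1416 against 3628 and 2505 CPM (log2 change 1.17, SE 0.29, adjusted p = 0.00232). Ern1, the stress sensor IRE1, was lower (70.3 and 78.1 against 23.9 and 31.0 CPM, log2 change -1.44, SE 0.23, adjusted p = 1.55e-05). Immediate early genes, which cell dissociation is known to induce, split 6 higher and 7 lower of 28. Fos had 432 and 354 against 128 and 147 CPM (log2 change -1.51, SE 0.24, adjusted p = 1.89e-05), and Jun was not called (598 and 563 against 491 and 576 CPM). Leaving out each library in turn gave counts that differed, and 4, 6, 8 and 11 unfolded protein response genes were higher and 1, 3, 5 and 7 immediate early genes lower. With 1 library left out, the call was lost for Hspa5 (adjusted p = 0.071 without WT replicate 1).

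**Figure D3:**
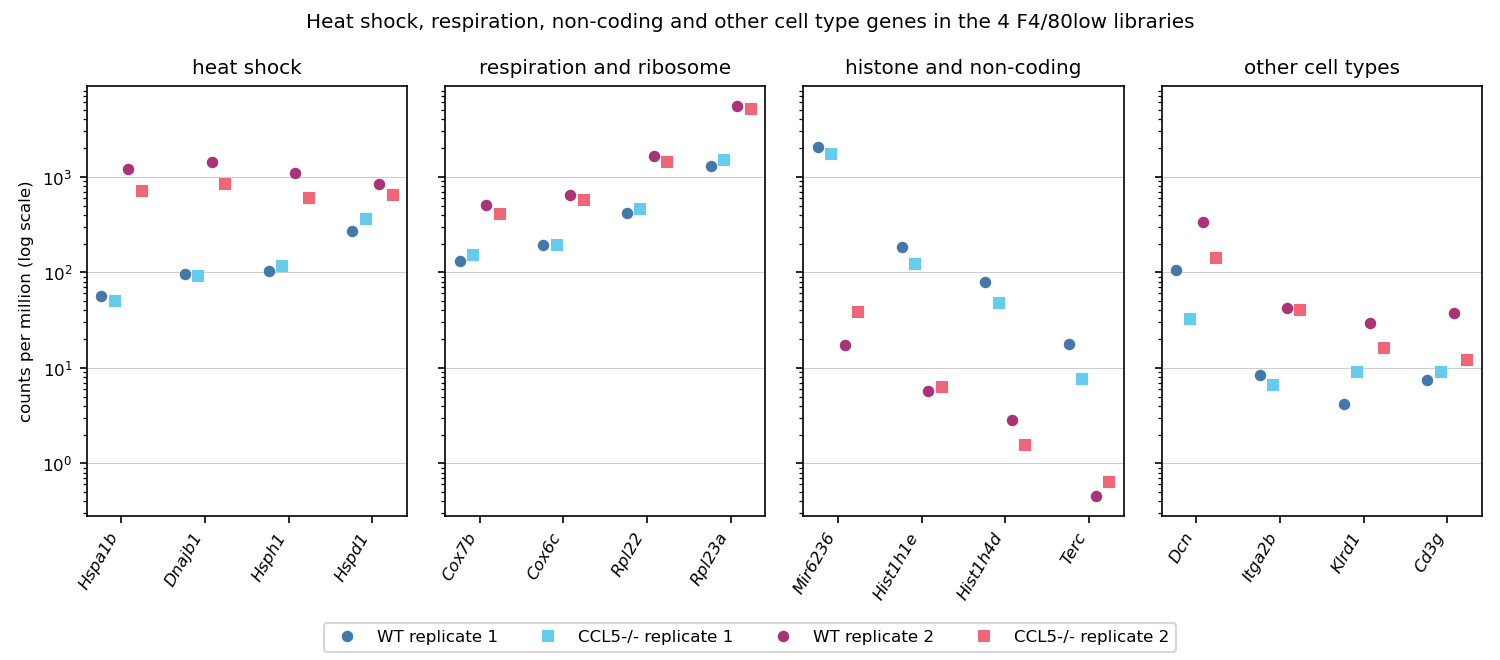
CPM (log scale) of heat shock, respiration, ribosomal protein, histone and non-coding genes and of genes of other cell types in each library, blue for replicate 1 and red for replicate 2. Mir6236 lies lower and Hspa1b higher in both replicate 2 libraries, and both were named by a rule that required no overlap between the numbers.

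Histone genes, and several other genes whose RNA is known to lack a poly(A) tail, were lower in replicate 2. Replication-dependent histone messages end in a stem-loop in place of a tail. Of 55 histone genes tested, 0 were higher and 49 lower, with a median of -4.14 (-4.01 in the WT pair and -3.72 in the CCL5-/- pair). Hist1h1e, a linker histone, had 184 and 121 CPM in replicate 1 and 5.65 and 6.33 CPM in replicate 2 (log2 change -4.64, SE 0.27, adjusted p = 1.85e-12), and Hist1h4d, a histone H4, 78.4 and 47.2 against 2.83 and 1.55 CPM (log2 change -4.85, SE 0.28, adjusted p = 1.12e-12). The 6 members not called included Hist1h2bc (31.1 and 23.8 against 27.2 and 31.0 CPM), known to give tailed transcripts as well. Histone genes are near-identical, so single members are uncertain. Summed over the 68 genes in the table, histones held 1728 and 1041 CPM in replicate 1 and 195 and 184 CPM in replicate 2. Terc, the RNA component of telomerase, had 17.9 and 7.68 against 0.454 and 0.633 CPM (log2 change -4.44, SE 0.54, adjusted p = 5.74e-07). Rmrp, the RNA of the MRP ribonuclease, had 3722 and 1606 CPM in replicate 1 and 2.73 and 8.23 CPM in replicate 2, and Rpph1, that of ribonuclease P, 421 and 217 against 4.14 and 11.7 CPM. Both were far apart between the numbers but were not called (adjusted p = 0.0565 and 0.106). Of 14 structural and nuclear RNA genes, 3 were higher and 5 lower (median -2.27, but -0.95 with the length offsets described below). Of 35 small nucleolar RNA genes, 0 were higher and 10 lower (median -1.33). With the length offsets they gave 2 higher and 7 lower (median -0.42). The spliced non-coding genes Snhg1 and Gas5 were higher (64.0 and 73.8 against 331 and 295 CPM and 104 and 106 against 358 and 364 CPM, log2 changes 2.18 and 1.78). The long nuclear RNAs Malat1 and Neat1 were lower, with 7559 and 7708 against 2026 and 937 CPM and 1492 and 932 against 171 and 139 CPM (log2 changes -2.47 and -2.93). The labels do not say whether counting used strand, and a gene and a transcript nested in it or antisense to it cannot be told apart. In the fits without 1 library, 41, 47, 44 and 43 histone and 6, 7, 4 and 2 small nucleolar RNA genes were lower. A call was gained for Rmrp (adjusted p = 5.31e-05 without WT replicate 1, 1.92e-05 without CCL5-/- replicate 1, 0.0228 without WT replicate 2 and 0.0186 without CCL5-/- replicate 2) and Rpph1 (adjusted p = 0.000314 without WT replicate 1, 0.00013 without CCL5-/- replicate 1, 0.00448 without WT replicate 2 and 0.00212 without CCL5-/- replicate 2).

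Mir6236, a microRNA gene of 123 bases, had 2071 and 1723 CPM in replicate 1 and 17.2 and 38.3 CPM in replicate 2 (log2 change -6.19, SE 0.39, adjusted p = 3.44e-09), the largest fall among called genes that met the naming rule for large changes. Its mature sequence, at chr9:110281353-110281371 on the plus strand per RefSeq (GRCm38.p6), is given with the seed (bases 2 to 8) in capitals.
mmu-miR-6236: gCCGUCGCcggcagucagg
Of 29 microRNA genes tested, 0 were higher and 10 lower (median -0.75). Leaving out 1 library gave 4, 4, 6 and 3 lower and 0, 0, 0 and 2 higher. With a minimum of 50 counts, 2 of 7 were lower, with a median of 0.01. The labels name a TruSeq RNA kit on total RNA and not a small RNA kit, so the values count reads on the gene's locus and not mature microRNA. Mir6236 had 7868 and 9642 reads in replicate 1 and 341 and 666 in replicate 2. The dropped Rn45s row was high and low in the same libraries, with 5423624 and 5250899 against 189134 and 263654 reads. Whether the Mir6236 reads came from ribosomal RNA was not tested.

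The direction of change followed transcript length. Lengths of the longest GENCODE M21 transcript were found for 12575 genes, 96.46% of those tested. In the shortest quintile (66 to 1884 bases) the median log2 change was 0.52, with 811 genes higher and 186 lower. In the longest quintile (5176 to 123179 bases) it was -0.75, with 68 higher and 1269 lower. The quintiles between gave 0.27, 0.04 and -0.22. Within WT alone the shortest and longest quintiles had medians of 0.50 and -0.72, and within CCL5-/- alone 0.51 and -0.76. Quintiles of GC content ran from -0.13 to 0.22 with no steady order. Long genes among the falls named above are Vcan, with a transcript of 12427 bases, and Neat1, with 20771 bases. Kmt2d, a histone methyltransferase, has a transcript of 19823 bases and a log2 change of -2.97, and Dst, a cytoskeletal linker, one of 23279 bases and a log2 change of -2.70. The respiration and ribosomal protein genes are short, with median lengths of 1094 and 1106 bases against 3309 for all genes tested. Of 83 ribosomal protein genes 46 were higher and 0 lower (median 0.78), and Rpl23a had 1297 and 1505 against 5576 and 5145 CPM (log2 change 1.94, SE 0.29, adjusted p = 9.43e-06). Leaving out 1 library gave 25, 24, 50 and 48 higher.

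**Figure D4:**
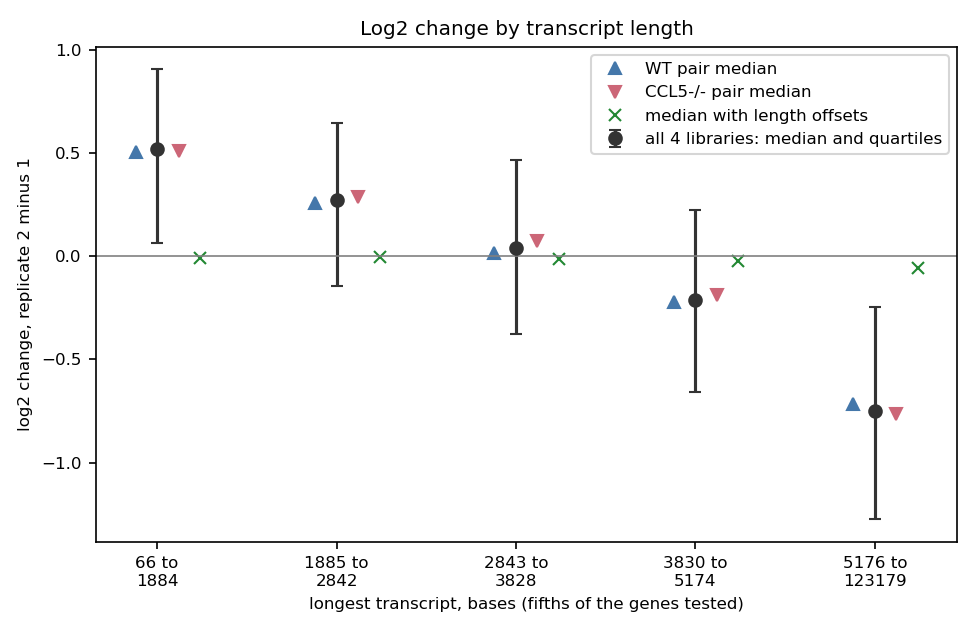
Median log2 change (replicate 2 minus replicate 1) of genes in quintiles of longest transcript length, with quartiles as bars, for all 4 libraries (circles), for the WT and CCL5-/- pairs alone (triangles) and with length offsets (crosses). The medians step down from 0.52 in the shortest to -0.75 in the longest quintile, alike in both genotypes.

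A second fit, chosen after this was seen, gave each library an offset that followed transcript length. It called 1349 of 12575 genes higher (10.7%) and 1309 lower (10.4%). Of the genes called without offsets, 49.2% of those higher and 49.5% of those lower kept the call, which made up 68.6% and 88.4% of the calls with offsets. Oxidative phosphorylation dropped to 10 higher and 1 lower, with a median of 0.21, and ribosomal proteins to 22 higher and 1 lower (0.28). Heat shock (16 higher, median 1.57), neutrophil (20 lower, -2.80), monocyte (10 lower, -0.68) and histone genes (50 lower, -4.72) had about as many calls as before. Class II genes gave 4 higher, interferon gamma genes 6, and fibroblast genes 9 higher and 1 lower. Itgam and Ptprc remained lower (-1.58 and -1.12, adjusted p = 3.22e-05 and 0.0011), and H2-Ab1 (2.19), Vcan (-2.19) and Mrc1 (-1.05) kept their directions and calls. Not called any longer were C1qa (0.64, adjusted p = 0.0768), C1qb (0.61, adjusted p = 0.0817), Cd74 (0.72, adjusted p = 0.0633), Itgal (-0.58, adjusted p = 0.0531), Klrd1 (1.04, adjusted p = 0.0838), Cd3g (1.11, adjusted p = 0.09) and Foxp3 (-2.04, adjusted p = 0.0573). Nor were Csf2 (0.62, adjusted p = 0.0602), Bst2 (0.23, adjusted p = 0.554), Plac8 (0.34, adjusted p = 0.383), S100a4 (0.48, adjusted p = 0.248), Cdh5 (-1.56, adjusted p = 0.0819), Acaca (-0.55, adjusted p = 0.0772) and Dst (-0.62, adjusted p = 0.0681). Of genes named above as not called, those called with offsets were Pf4 (-1.18), Clec4d (-0.76), Col3a1 (0.80), Trem2 (0.65) and Hspa4l (1.42). In the epithelial and tumour list, the keratin genes Krt8 (-1.18) and Krt20 (-0.90) were called lower as well. Both were also called lower with library totals and with a minimum of 50 counts. The longest transcript need not be the one expressed, as with the small respiration gene Cox6c, listed at 3038 bases.

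**Figure D5:**
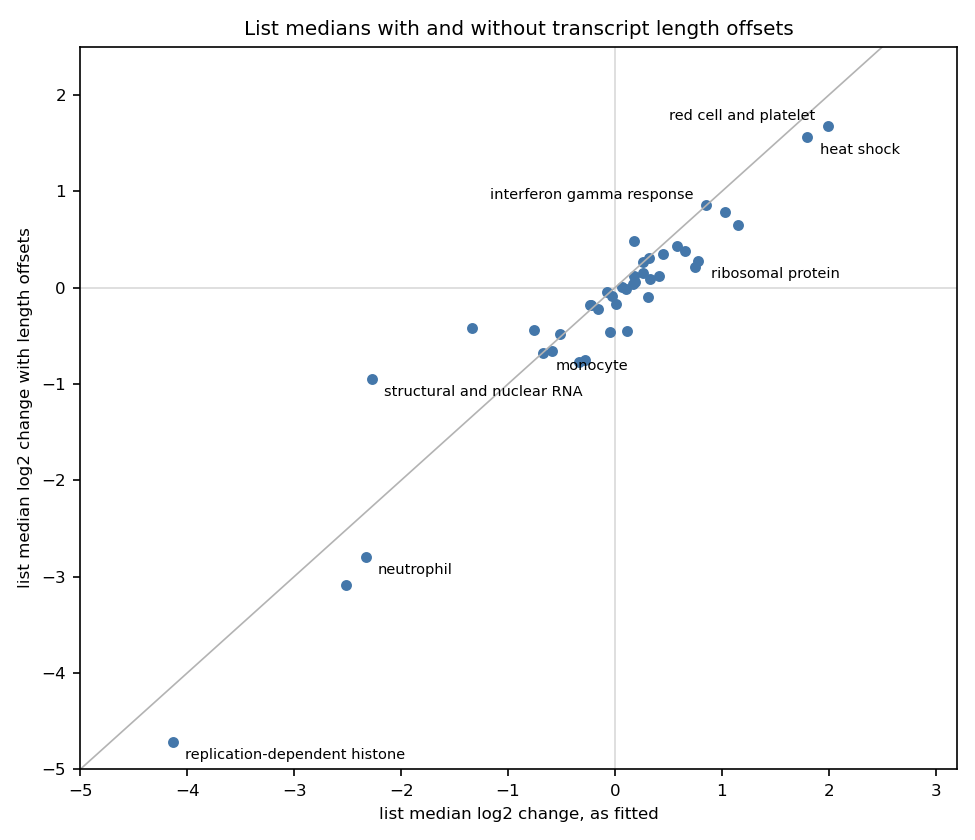
Median log2 change of each of the 41 lists as fitted (x axis) and with per-library transcript length offsets (y axis), with the line of equality. With offsets, histone (-4.72 against -4.14) and neutrophil medians (-2.80 against -2.33) lie farther from 0 and ribosomal proteins (0.28 against 0.78) nearer 0.

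Depth, ribosomal RNA reads, tailless RNAs and the length trend differed with the replicate number in the same libraries as the gate and neutrophil genes. Gate, cell mix and library preparation cannot be told apart by this design.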

How the data were processed

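RNA of sorted F4/80low TAMs was extracted with Trizol and made into TruSeq RNA LT V2 libraries, per the labels. The deposited counts per gene are the authors' raw counts, used for 4 libraries, and the deposited FPKM values of the 2 F4/80hi libraries were used only for the match of libraries. The submitters' processing notes list STAR, TopHat2 2.1.1, HTSeq and Cufflinks 2.2.1 beside bcl2fastq 2.17.1.14, cutadapt, FastQC and DESeq2, with no role, and builds of human and mouse. The sources used here do not give the build or the strand setting behind the counts.

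The Rn45s and Lars2 rows were dropped, which left 24389 of 24391 rows. Libraries were grouped by the number in the titles. Counts were fitted with edgeR 4.0.16 in R 4.3.3 (quasi-likelihood test, robust, TMM factors, filterByExpr, genotype and number as terms, 1 residual degree of freedom), with Benjamini-Hochberg adjustment over all genes and a threshold of 0.05. The SE is the size of the log2 change over the root of the F statistic. CPM are TMM-scaled, and log2 CPM use a prior count of 2. DESeq2 1.42.0 and limma 3.58.1 were alternatives, and the code was tested on simulated data. Totals per library are given in the report, and the lower depth of replicate 1 limits low genes most. Named genes were Ccl5, Itgam, Adgre1 and Ptprc, the 12 highest and 12 lowest changes among called genes whose numbers did not overlap and whose mean log2 CPM reached 5, and up to 4 members per list with the smallest p. Another 43 genes were named after their values were seen. Members and lists were chosen with earlier results of these data known. Length offsets (lowess span 0.3) were added after seeing the data.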

Additional observations from a re-analysis of the deposited data

Results flagged for a closer look

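The change from replicate 1 to replicate 2 had opposite signs in the WT and the CCL5-/- pair for the genes and list medians below. With 1 library per genotype and number, the difference between the pairs was not tested. Values are log2 changes in the WT and then the CCL5-/- pair. Among genes, the pairs went apart for Ccl5 (1.58 and -0.39), Adgre1 (0.54 and -0.58), Hpx (1.62 and -3.44), Ccr2 (0.13 and -1.31), Cd3d (0.55 and -0.76) and Cd3e (0.37 and -0.55). Smaller or similar gaps were seen for Cd68 (0.23 and -0.04), Ciita (0.079 and -0.80), Clec4d (0.18 and -0.58), Clec4e (0.36 and -0.50), Col1a1 (-0.48 and 0.23) and Col3a1 (-0.051 and 0.70). Opposite signs were also found for Hist1h2bc (-0.19 and 0.38), Il1b (0.56 and -0.17), Jun (-0.28 and 0.03), Ly6c2 (0.35 and -1.02), Ppbp (0.22 and -0.06) and Tnf (0.24 and -0.36). The remaining genes were  and Axl (-0.14 and 0.29). Among list medians, opposite signs were seen for mature macrophage (-0.0665 and 0.04), inflammatory cytokine (0.22 and -0.29), chemokine ligand (0.47 and -0.06), type I interferon response (0.33 and -0.47), matrix remodelling (0.18 and -0.10) and fibroblast and pericyte (-0.10 and 0.62). The other lists were endothelial (-0.42 and 0.41), epithelial and tumour (-1.02 and 0.62), glycolysis and hypoxia (-0.0277 and 0.32) and immediate early and dissociation (-0.22 and 0.01).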

How the results depend on the processing

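No paired analysis was possible because the replicate number is itself the compared factor. Against 1950 genes higher and 2432 lower, DESeq2 called 1255 and 1614, and library totals in place of TMM factors called 1015 higher and 3449 lower. Requiring a change of at least 2-fold left 915 and 1586. Transcript length offsets, added after seeing the data, gave 1349 and 1309. Leaving out 1 library, which also removes the genotype term, gave 628 to 1684 higher and 1175 to 1915 lower. The cause of these differences was not tested. The other alternatives run (limma-voom, RLE factors, no filter, a minimum of 50 counts, no genotype term, Rn45s and Lars2 kept, thinning to 3512583 counts) kept the counts over all genes within 1.5 times those of the comparison as fitted. Single lists moved more: without the genotype term, neutrophil genes went from 20 to 7 lower and cholesterol synthesis genes from 5 to 1 higher, and Dcn (adjusted p = 0.245), Msmo1 (adjusted p = 0.0534), Cd3g (adjusted p = 0.0748), Itgax (adjusted p = 0.173) and Plac8 (adjusted p = 0.0508) lost their calls. Among the 177 genes of the naming rule, not all of which the report describes, and the 43 added ones, length offsets turned the sign of Pfkp (0.0921, adjusted p = 0.819), Kcnq1ot1 (1.37, adjusted p = 2.88e-05) and Mki67 (0.32, adjusted p = 0.402), and they ended the call of 34 others. DESeq2 ended 11 such calls. Leaving out WT replicate 1 ended 61 and leaving out CCL5-/- replicate 1 ended 39. The 1 residual degree of freedom and the low depth of replicate 1 limit all calls.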

Other observations

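Some lists are not described in the report. Of 26 dendritic cell genes, 1 was higher and 2 lower, and of 30 lysosome genes 3 were higher and 1 lower. Matrix remodelling genes gave 3 higher and 6 lower of 22. Thbs1, the matrix protein thrombospondin 1, had 2294 and 1896 CPM in replicate 1 and 320.1 and 286 CPM in replicate 2 (log2 change -2.79, SE 0.28, adjusted p = 1.59e-08). Of 17 arginine and tryptophan genes, 3 were higher and 2 lower.

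Several of the largest changes lay outside the lists. Cebpd, a transcription factor of the C/EBP family, had 42.6 and 21.4 CPM in replicate 1 and 162 and 232 CPM in replicate 2 (log2 change 2.67, SE 0.34, adjusted p = 0.000124). Nppb, which encodes the natriuretic peptide BNP, had 34.5 and 45.7 against 209.7 and 313 CPM (log2 change 2.69, SE 0.24, adjusted p = 2.95e-09), and Ctla2a, a cysteine protease inhibitor, 18.7 and 23.8 against 158 and 109 CPM (log2 change 2.62, SE 0.26, adjusted p = 1.96e-08). Slfn4, a Schlafen family gene of myeloid cells, had 499.5 and 272 against 70.9 and 28.9 CPM (log2 change -3.02, SE 0.25, adjusted p = 4.51e-10). Tet2, which oxidises methylated cytosine, had 135 and 114 against 24.1 and 13.1 CPM (log2 change -2.79, SE 0.24, adjusted p = 1.83e-09), and Wdfy3, an autophagy adaptor, 166 and 149.5 against 21.1 and 24.5 CPM (log2 change -2.79, SE 0.24, adjusted p = 8.96e-10). These 6 genes were named by a rule that took only genes whose numbers did not overlap, so their lack of overlap was set beforehand. Of all 13037 genes tested, 8903 had no overlap.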
